A study of Homo sapiens with 6 samples.

Results

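The genes of the YAP/TEAD pathway described here were *ANKRD1*, *YAP1*, *WWTR1*, *TEAD1*, *TEAD4*, *AMOTL1*, *AMOTL2*, *AXL*, *LATS2*, and *CRIM1*, which are effectors and common targets of Hippo signaling. They are 10 of the 60623 genes in the deposited count table. They were chosen by name and with their change between mocetinostat and DMSO in view, so that their own values in this comparison are given as a description, without a test. TC28a2 is a line of immortalized human chondrocytes, and mocetinostat inhibits class I histone deacetylases (HDACs). The cells received 2 μM of mocetinostat or its solvent, DMSO, over 24 hours. Each condition had 3 samples, which the study describes as independent experiments. Each total RNA sample was sequenced as single reads. A single cell line was used, and each group carried no genetic change that the labels name.

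In Hippo signaling, the kinases MST1 and MST2 (genes *STK4* and *STK3*) activate the kinases LATS1 and LATS2, which phosphorylate the coactivators YAP (*YAP1*) and TAZ (*WWTR1*) and keep them out of the nucleus. When the kinases are inactive, for example in spread cells on a stiff matrix, YAP and TAZ enter the nucleus, bind TEAD transcription factors, and switch on targets such as *ANKRD1*, *CCN1*, and *CCN2*. In chondrocytes, this pathway is known for its response to mechanical load and cell shape.

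Totals lay between 4873426 and 11031132 counts with DMSO and between 1619344 and 5089542 counts with mocetinostat, and the shallowest 2 libraries were mocetinostat replicates 2 and 3. Levels are in CPM, the count scaled to library size, after TMM normalization in edgeR. Each of the 10 members passed the expression filter that kept 13966 genes, and the smallest count of any of them in a library was 59, for *TEAD4*. Of the 8 chondrocyte markers examined, *SOX9*, the transcription factor of the lineage, was at 95.5 to 122 CPM with DMSO, while *COL2A1*, the type 2 collagen gene, was at 1.46 to 2.80 CPM and *COL9A1* held 0 to 3 counts. *COL9A1* and *PRG4* did not pass the filter and were not tested. Of the markers that define chondrocytes, *SOX9* was thus present in untreated cells and the cartilage collagens were near 0. Summed over the 8 markers the level was 111 to 136 CPM with DMSO and 252 to 287 CPM with mocetinostat. A large part of that sum was *SOX9*, which went from 106 ± 13.6 to 180 ± 14.4 CPM (SD, n = 3). Its log2 fold change was 0.77 (edgeR adjusted p = 2.51e-10), which was not called, and 1.30 under GAPDH scaling, where it was. Called higher by edgeR were *COL2A1* (log2 fold change 3.70), *COMP* (3.64), *ACAN* (2.75), *MATN3* (1.59), and *COL11A2* (1.54), the last 2 of which lost their calls with glmTreat, a test against a log2 fold change of 1 (adjusted p = 0.0613 and 0.074). These were 83.3% of the 6 markers tested, against 20.2% of all genes tested. However, *COL2A1*, *COMP* (0 to 1.18 CPM with DMSO), and *MATN3* passed the expression filter only through the mocetinostat libraries. Their calls are therefore a description. The 6 fibroblast markers, of which *DCN* did not pass the filter, were uneven in untreated cells, where *COL1A1* was at 3990 to 4870 CPM while *COL1A2*, *LUM*, and *DCN* were at 0.625 to 3.53 CPM, and summed to 4610 to 5550 CPM with DMSO and 4070 to 4450 CPM with mocetinostat. Of these, *LUM* (2.71) and *COL1A2* (1.73) were called higher and *COL3A1* (-1.35) and *PDGFRB* (-1.01) lower. Each direction was 40% of the 5 tested, against 20.2% higher and 8.18% lower among all genes tested. *LUM* and *COL1A2* passed the expression filter only through the mocetinostat libraries, so their calls are a description. *COL3A1* was at -0.82 under scaling to GAPDH counts, and *PDGFRB* was at -0.99 without DMSO replicate 1 and -0.90 without mocetinostat replicate 3, which ended their calls. *PDGFRB* also lost its call under GAPDH scaling (-0.47), with RLE size factors (-0.99), with library size only, and with glmTreat (adjusted p = 0.792). The same held with 10 counts in every sample (-0.93) and after thinning to the shallowest library (-0.91). The part of these marker changes in the values below was not tested. Because these are bulk samples, fewer cells expressing a gene and less RNA per cell cannot be told apart.

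*ANKRD1* had the largest difference among the members. It encodes a nuclear and sarcomeric ankyrin repeat protein, also called CARP, and is a standard readout of YAP and TAZ activity. The gene lies on chromosome 10 of GRCh38 from 90912096 to 90921087, on the minus strand (ENSG00000148677). With DMSO it held 1379, 531, and 792 counts in replicates 1, 2, and 3, or 125, 111, and 117 CPM. With mocetinostat it held 4683, 1348, and 2335 counts, or 928, 835, and 968 CPM. The raw counts were higher in each of the shallower treated libraries than in the DMSO library with the same number, and after normalization the conditions did not come near each other. The log2 fold change from the edgeR fit was 2.95 (standard error 0.08), and it was 3.48 under scaling of the libraries by their counts of GAPDH. By raw count, *ANKRD1* stood between rank 1828 and rank 2169 among the genes of the DMSO libraries and between rank 76 and rank 87 in the mocetinostat libraries, where it took 0.0832% to 0.0966% of the counts.

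The 250 bases before the annotated start of *ANKRD1* are shown because they carry 2 matches to the core motif of TEAD factors, GGAATG, searched on both strands (CATTCC on the other). The sequence before *CCN2*, a secreted matricellular protein and another classic target, is set beside it because it carries 3 matches, and that before *YAP1* carries 1. The sequences are from RefSeq on GRCh38.p14, run 5′ to 3′ on the strand of the gene, and the capitals mark the motif.

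*ANKRD1*, minus strand, chr10:90921088-90921337: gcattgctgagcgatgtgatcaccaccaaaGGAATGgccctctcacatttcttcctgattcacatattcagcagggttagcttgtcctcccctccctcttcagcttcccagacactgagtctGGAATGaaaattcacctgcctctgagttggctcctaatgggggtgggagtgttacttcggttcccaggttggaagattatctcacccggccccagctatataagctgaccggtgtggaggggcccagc

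*CCN2*, minus strand, chr6:131951373-131951622: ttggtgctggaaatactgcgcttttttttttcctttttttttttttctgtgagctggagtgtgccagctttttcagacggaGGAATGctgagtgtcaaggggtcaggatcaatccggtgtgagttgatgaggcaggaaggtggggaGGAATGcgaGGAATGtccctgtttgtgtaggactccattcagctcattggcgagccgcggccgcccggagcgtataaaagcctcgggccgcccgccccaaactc

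*YAP1*, plus strand, chr11:102110197-102110446: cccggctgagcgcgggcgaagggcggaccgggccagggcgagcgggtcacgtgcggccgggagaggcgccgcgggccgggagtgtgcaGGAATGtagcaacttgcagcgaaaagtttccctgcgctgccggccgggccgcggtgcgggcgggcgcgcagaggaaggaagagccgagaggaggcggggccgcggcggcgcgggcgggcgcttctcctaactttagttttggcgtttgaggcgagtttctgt

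The matches before *ANKRD1* begin 220 and 128 bases upstream of the start, and those before *CCN2* 169, 104, and 95 bases upstream. The single match before *YAP1* begins 162 bases upstream. The upstream windows of 7 of the 10 members could be matched by symbol, and 4 of these genes (*ANKRD1*, *YAP1*, *AMOTL2*, and *AXL*) had a match. Counted by window, 4 of the 10 windows of the 7 genes held one. *AMOTL2* and *AXL* each have 2 annotated starts and the match lay before the second listed start only, while *WWTR1*, *AMOTL1*, and *LATS2* had none. Of 35116 windows of the same length in the table, 11.9% held this motif. A match of 6 letters describes the sequence and is no evidence of binding. The AP-1 motif TGANTCA, which does not overlap the TEAD matches, was found once before *ANKRD1*, 195 bases upstream, and in 6.57% of all windows.

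**Figure D1:**
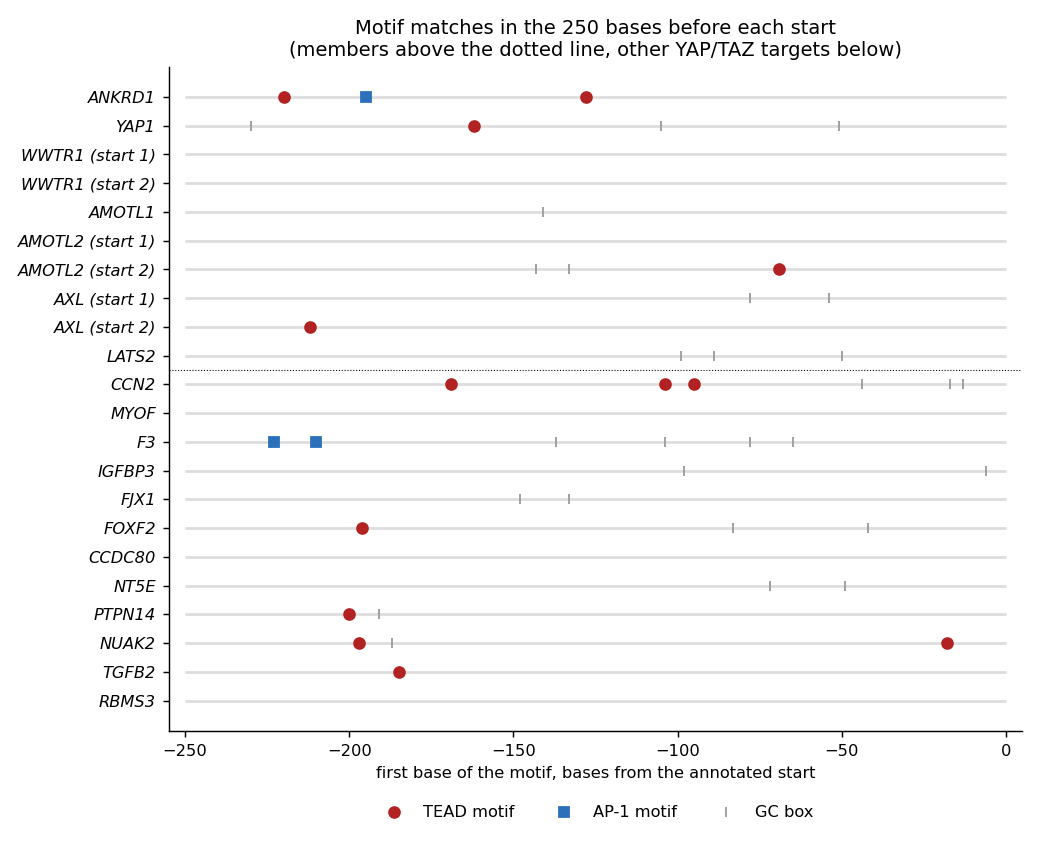
Position of motif matches in the 250 bases before annotated starts of members (above the dotted line) and other YAP/TAZ targets (below); the horizontal axis gives bases from the start to the first base of the match, circles mark TEAD, squares AP-1, and ticks GC boxes (GGGCGG). *CCN2* holds 3 TEAD matches and *ANKRD1* and *NUAK2* hold 2 each, and the other 19 windows hold at most 1.

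The coactivators moved apart. *YAP1* (chromosome 11 from 102110447 to 102233424) was at 178, 146, and 146 CPM with DMSO and at 76.9, 79.3, and 77.5 CPM with mocetinostat. Every treated sample lay below every control, and the log2 fold change was -1.02 (standard error 0.11). *WWTR1*, which encodes TAZ (chromosome 3 from 149517235 to 149736714), was at 151, 168, and 178 CPM with DMSO and at 199, 200, and 192 CPM with mocetinostat. Its conditions did not overlap either, and the log2 fold change was 0.25 (standard error 0.09). It was 0.00 without an expression filter, where the median of all genes tested was -0.25. Within each library, the log2 ratio of *YAP1* to *WWTR1* counts needs no scaling between libraries. It was 0.24, -0.21, and -0.28 with DMSO and -1.37, -1.33, and -1.31 with mocetinostat, so that the geometric mean ratio went from 0.945 to 0.396. Per kilobase of exon, *YAP1* made up 55.5% ± 4.77 (SD, n = 3) of the pair with DMSO and 34.4% ± 0.470 (SD, n = 3) with mocetinostat. The summed level of the pair was 44.6 ± 1.56 CPM per kb with DMSO and 35.9 ± 0.582 CPM per kb with mocetinostat (SD, n = 3).

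The TEAD factors, which carry the DNA-binding domain of the complex, also changed in proportion. *TEAD1* (chromosome 11 from 12674421 to 12944737) was at 230, 219, and 195 CPM with DMSO and at 277, 310, and 290 CPM with mocetinostat, a log2 fold change of 0.44 (standard error 0.08). *TEAD4* (chromosome 12 from 2959330 to 3040676) was at 41.5, 52.1, and 49.5 CPM with DMSO and at 33.7, 36.6, and 30.3 CPM with mocetinostat, a log2 fold change of -0.51 (standard error 0.15), which was 0.03 when libraries were scaled to GAPDH. Neither gene overlapped between conditions. The log2 ratio of *TEAD4* to *TEAD1* counts was -2.47, -2.08, and -1.98 with DMSO and -3.04, -3.09, and -3.26 with mocetinostat. Of the other family members, *TEAD2* fell from 39.4 ± 1.28 to 14.5 ± 3.72 CPM (SD, n = 3), or by a log2 fold change of -1.53 (adjusted p = 3.51e-11 in the quasi-likelihood test of edgeR, adjusted over all genes tested by Benjamini and Hochberg's method). Its call was lost under GAPDH scaling, at -0.99, and exons of *CD37* on the opposite strand cover 10.7% of its own. *TEAD3* had a log2 fold change of -0.15 (edgeR adjusted p = 0.405), which was 0.39 under GAPDH scaling (edgeR adjusted p = 0.0287). That of *TEAD3* was 0 without mocetinostat replicate 1 and -0.36 without mocetinostat replicate 2, where it passed (edgeR adjusted p = 0.0473). It also passed without an expression filter (-0.40, edgeR adjusted p = 0.0351). Counted per kilobase, *TEAD1* made up 29.5% ± 2.80 of the 4 TEAD genes with DMSO and 45.8% ± 3.01 with mocetinostat, while *TEAD2* went from 19.5% ± 0.566 to 8.05% ± 1.12 and *TEAD4* from 30.8% ± 2.98 to 24.7% ± 1.91 (SD, n = 3). The share of *TEAD3* overlapped between conditions. Summed over the family, the level was 68.0 ± 1.32 CPM per kb with DMSO and 59.9 ± 7.37 CPM per kb with mocetinostat (SD, n = 3), and mocetinostat replicate 2, at 68.4 CPM per kb, lay within the range of the controls.

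**Figure D2:**
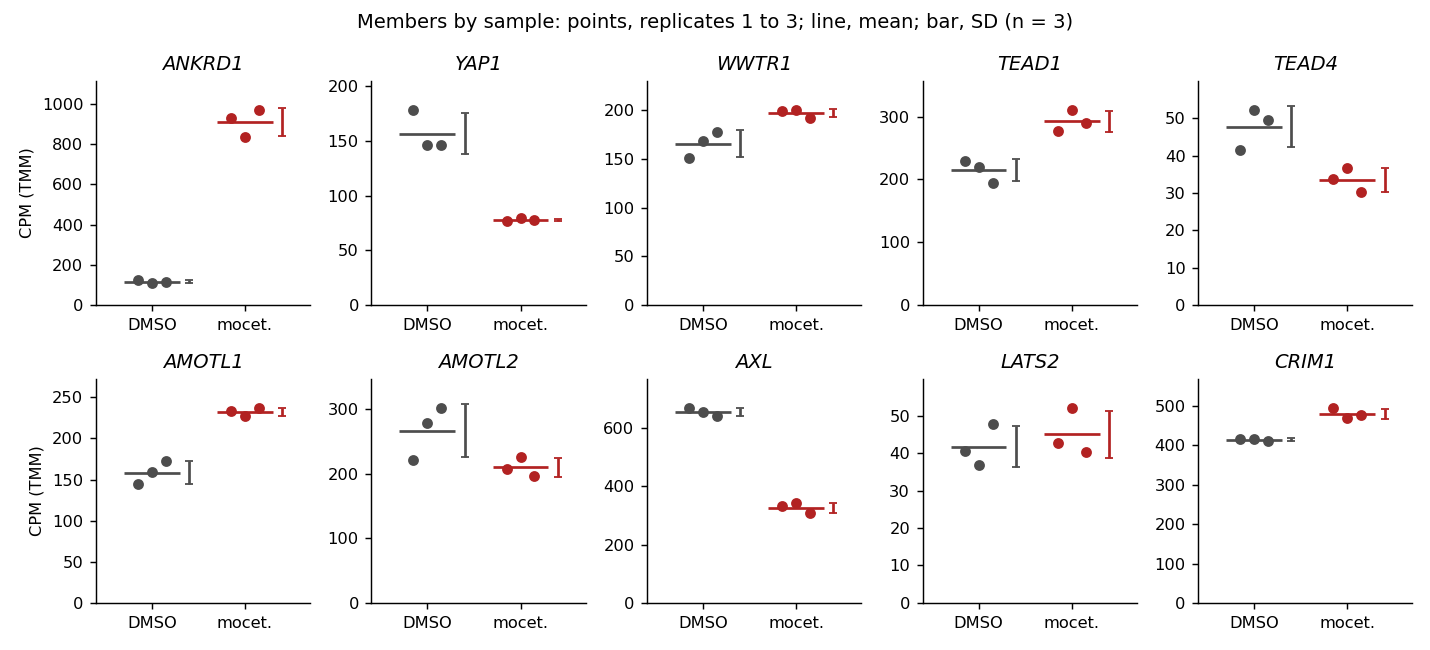
CPM (TMM) of the 10 members in each sample, DMSO in grey and mocetinostat in red; points are replicates 1 to 3, lines are means, and bars are SDs (n = 3). *ANKRD1* sits between 111 and 125 CPM with DMSO and between 835 and 968 CPM with mocetinostat, and only *AMOTL2* and *LATS2* overlap between conditions.

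The angiomotins are junctional scaffolds that hold YAP in the cytoplasm and also activate LATS kinases, and *AMOTL1* and *AMOTL2* are themselves induced by YAP. *AMOTL1* (chromosome 11 from 94706431 to 94876748) was at 144, 159, and 172 CPM with DMSO and at 233, 227, and 237 CPM with mocetinostat, a log2 fold change of 0.55 (standard error 0.09) without overlap. *AMOTL2* (chromosome 3 from 134355347 to 134375479) was at 221, 278, and 302 CPM with DMSO and at 208, 226, and 196 CPM with mocetinostat. Its conditions overlapped, because DMSO replicate 1 was below mocetinostat replicate 2, and its log2 fold change of -0.35 (standard error 0.09) was 0.18 under GAPDH scaling. The log2 ratio of *AMOTL2* to *AMOTL1* counts, 0.62, 0.80, and 0.81 with DMSO, was -0.16, -0.01, and -0.27 with mocetinostat. *AMOT*, the founding member of the family, rose from 4.21 ± 1.41 to 36.6 ± 4.05 CPM (SD, n = 3), which gave a log2 fold change of 3.21 (standard error 0.23, edgeR adjusted p = 1.03e-20). Per kilobase, *AMOT* rose from 0.860% ± 0.261 to 7.20% ± 0.943 of the 3 angiomotin genes (SD, n = 3), and the summed level of the family was 57.5 ± 7.85 CPM per kb with DMSO and 59.9 ± 1.28 CPM per kb with mocetinostat (SD, n = 3).

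*LATS2*, the kinase that phosphorylates YAP and is induced by it, did not separate the conditions. It lies on chromosome 13 from 20973036 to 21061586 and was at 40.6, 36.9, and 47.9 CPM with DMSO and at 42.8, 52.1, and 40.2 CPM with mocetinostat. The log2 fold change was 0.08 (standard error 0.14), and it was -0.02 without DMSO replicate 2, -0.03 without mocetinostat replicate 2, and -0.17 without an expression filter. Its paralog *LATS1* fell, from 87.9, 83.5, and 75.0 CPM with DMSO to 41.0, 42.8, and 37.7 CPM with mocetinostat (log2 fold change -1.02, standard error 0.13, edgeR adjusted p = 1.20e-10). Its log2 fold change was -0.99 without DMSO replicate 1 and likewise without mocetinostat replicate 3, just short of the threshold of 1 used for calls. In each library the log2 ratio of *LATS2* to *LATS1* counts gives the balance of the kinases, -1.11, -1.18, and -0.65 with DMSO and 0.06, 0.28, and 0.09 with mocetinostat. *LATS2* thereby went from 43.4% ± 4.96 to 62.6% ± 1.94 of the pair per kilobase (SD, n = 3), through the lower *LATS1* value, and the summed level was 17.1 ± 0.633 CPM per kb with DMSO and 12.8 ± 1.38 CPM per kb with mocetinostat.

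**Figure D3:**
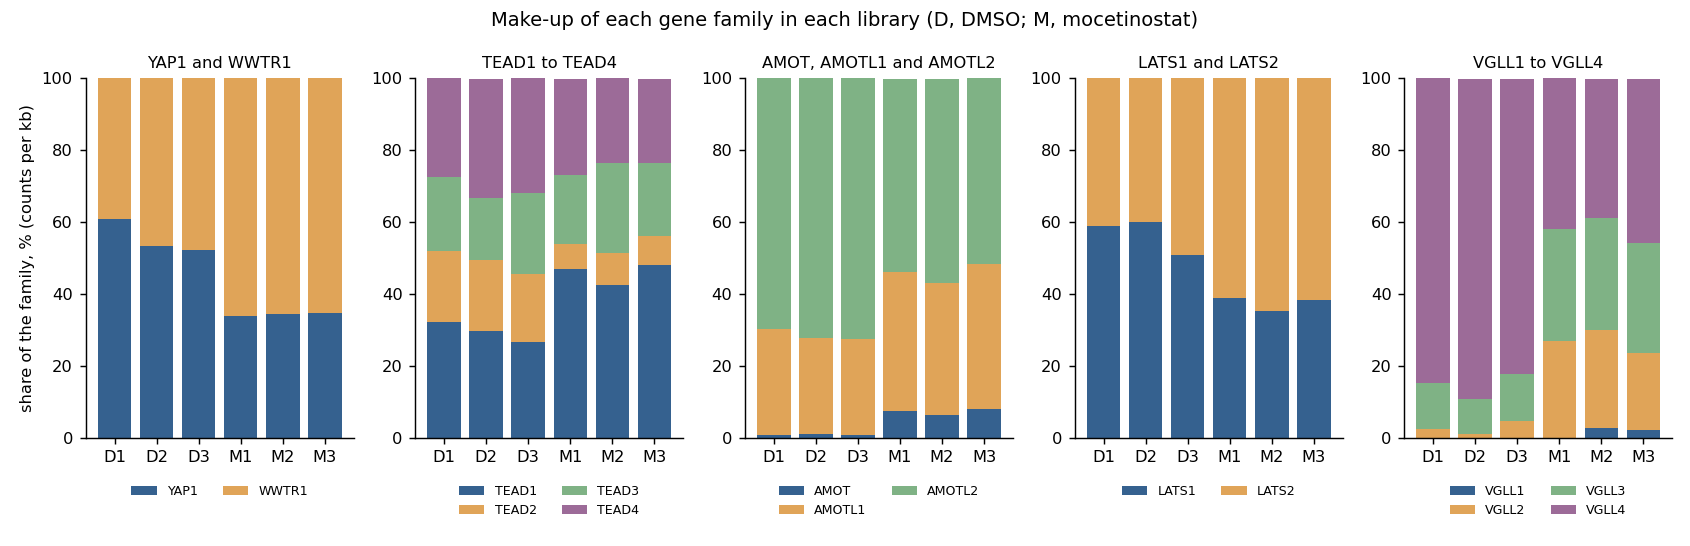
Share of each gene in the summed counts per kilobase of its family (percent, vertical axis) in DMSO libraries D1 to D3 and mocetinostat libraries M1 to M3. *YAP1* goes from 52.2% to 61.0% of its pair down to 33.9% to 34.8%, and *VGLL2* and *VGLL3* take up more of their family in each treated library than in any control.

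Of the target genes among the members, *AXL* encodes a receptor tyrosine kinase for the ligand GAS6, and *CRIM1* a transmembrane protein that binds BMPs. *AXL* (chromosome 19 from 41219223 to 41261766) had raw counts of 7383, 3147, and 4334 in the DMSO libraries, or 668, 655, and 639 CPM, and 1668, 551, and 744 counts with mocetinostat, or 331, 341, and 308 CPM. Its conditions lay far apart, and the log2 fold change was -1.0 (standard error 0.07). *CRIM1* (chromosome 2 from 36355778 to 36551135) was at 417, 416, and 411 CPM with DMSO and at 495, 469, and 476 CPM with mocetinostat. The conditions differed by 0.21 on the log2 scale (standard error 0.07), without overlap between conditions. They differed by -0.04 without an expression filter, where the median of all genes tested was -0.25. The target genes among the members therefore did not share a direction, with *ANKRD1* far above, *AXL* below, and *CRIM1* slightly above the controls. Among the members described above as induced by YAP, *AMOTL1* was higher (0.55), while *AMOTL2* (-0.35) and *LATS2* (0.08) overlapped between conditions.

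Counted together, the treated samples all lay above the controls in 5 members and all below them in 3. Over the 13966 genes tested, 33.7% lay wholly above and 32.8% wholly below, so such a separation was common in these data. The median log2 fold change of the 10 members was 0.15, against 0.00 over all genes tested. Their CPM summed to between 2220 and 2260 with DMSO and between 2780 and 2820 with mocetinostat. Without *ANKRD1*, the other 9 summed to between 2090 and 2140 with DMSO and between 1850 and 1940 with mocetinostat, so that the higher sum rested on *ANKRD1*.

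Per kilobase of exon, the order of the members' levels changed. With DMSO it ran from *AXL* (127 ± 2.85 CPM per kb) through *ANKRD1* (65.6 ± 3.97), *CRIM1* (57.0 ± 0.428), *AMOTL2* (41.2 ± 6.42), *YAP1* (24.8 ± 2.94), *TEAD4* (21.0 ± 2.42), *TEAD1* (20.1 ± 1.65), *WWTR1* (19.8 ± 1.64), and *AMOTL1* (15.8 ± 1.41) to *LATS2* (7.45 ± 1.00, all SD, n = 3). In that order, *TEAD4* overlapped *TEAD1*, and *TEAD1* overlapped *WWTR1*, while the samples of the other neighbours did not overlap. With mocetinostat, *ANKRD1* stood first at 509 ± 38.0 CPM per kb, followed by *CRIM1* (66.0 ± 1.85) and *AXL* (63.7 ± 3.29), which overlapped each other. *YAP1* was next to last at 12.3 ± 0.199 CPM per kb, above *LATS2* at 8.02 ± 1.11, and *WWTR1* (23.6 ± 0.479) overlapped *AMOTL1* (23.1 ± 0.512). Lengths are the union of annotated exons, which may be longer than the transcripts these cells use.

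The common YAP/TAZ targets outside the members, also listed with earlier results of these data known, changed in both directions. Following the study's cutoffs, genes were called when the adjusted p was below 0.05 and the log2 fold change exceeded 1 in either direction. Of the 17 targets listed, all were tested, 4 were called higher (23.5%, against 20.2% of all genes tested) and 5 lower (29.4%, against 8.18%). At the adjusted p alone, 8 were higher and 7 lower, where 32.9% and 31.4% of all genes tested were. The median log2 fold change of the list was -0.14.

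*IGFBP3*, an IGF-binding protein, rose most, from 23.8, 27.3, and 28.9 CPM with DMSO to 253, 256, and 254 CPM with mocetinostat (log2 fold change 3.27, standard error 0.11, edgeR adjusted p = 1.12e-39). *CCN1*, the matricellular protein CYR61, rose from 392, 378, and 385 CPM to 1340, 1300, and 1220 CPM (log2 fold change 1.74, standard error 0.07, edgeR adjusted p = 1.25e-34). *CCN2*, also known as CTGF, rose from 325, 320, and 337 CPM to 669, 734, and 722 CPM, a log2 fold change of 1.11 (standard error 0.07, edgeR adjusted p = 1.89e-22). *NT5E*, the ecto-5′-nucleotidase CD73, rose from 61.3 ± 2.25 to 140 ± 9.89 CPM (SD, n = 3), for which the log2 fold change was 1.18 (edgeR adjusted p = 5.84e-16). *CCN2* and *NT5E* were no longer called when tested against a log2 fold change of 1 with glmTreat (adjusted p = 0.0994 and 0.0693) or without an expression filter, where their log2 fold changes were 0.86 and 0.93. Exons of LINC01013 on the opposite strand cover 11.9% of those of *CCN2*.

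Among the targets that fell, *RBMS3*, an RNA-binding protein, had the largest change, from 43.4 ± 7.16 to 9.29 ± 4.32 CPM (SD, n = 3; log2 fold change -2.25, edgeR adjusted p = 9.55e-16). *FOXF2*, a forkhead transcription factor, fell from 16.4 ± 3.76 to 6.02 ± 2.76 CPM (SD, n = 3; log2 fold change -1.62, edgeR adjusted p = 1.60e-06). *FJX1* had a log2 fold change of -1.28 and *ARHGEF17* one of -1.26. *MYOF*, the membrane repair protein myoferlin, fell from 369, 381, and 384 CPM to 160, 161, and 170 CPM (log2 fold change -1.21, edgeR adjusted p = 1.61e-21). Under GAPDH scaling, *FJX1* (-0.74), *ARHGEF17* (-0.72), and *MYOF* (-0.68) lost their calls, and *FJX1* and *ARHGEF17* also lost them with glmTreat (adjusted p = 0.239 and 0.0701). *ASAP1* and *CCDC80* did not pass the test (edgeR adjusted p = 0.0963 and 0.1). Under GAPDH scaling they passed as higher, at 0.39 and 0.36 on the log2 scale (edgeR adjusted p = 1.68e-04 and 0.00155). Both passed as lower without a filter (edgeR adjusted p = 7.76e-06 and 6.53e-05) and without DMSO replicate 1 (0.01 and 0.0245). *ASAP1* also passed as lower with DESeq2 (adjusted p = 0.0284) and without mocetinostat replicate 2 (edgeR adjusted p = 0.0343). *CCDC80* did so without DMSO replicate 2 (edgeR adjusted p = 0.0498).

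The remaining Hippo genes, 35 in number, were listed by role with earlier results of these data known. They were tested in the same fit, and 34 passed the filter. Of these, 5 were called higher and 5 lower, each 14.7%, against 20.2% and 8.18% of all genes tested, and their median log2 fold change was -0.17. At the adjusted p alone, 11 were higher and 17 lower, where 32.9% and 31.4% of all genes tested were. These counts of higher genes include *VGLL2*, which passed the filter only through the mocetinostat libraries, so its call is a description. In the core cassette of kinases and adaptors, 0 of 6 were called higher and 2 were called lower, namely *LATS1* and *MOB1A*, an adaptor that activates LATS kinases. *MOB1A* went from 236, 200, and 196 CPM to 104, 107, and 102 CPM (log2 fold change -1.02, edgeR adjusted p = 3.44e-15), and without DMSO replicate 1 it had a log2 fold change of -0.95 and was not called. *STK4*, with a log2 fold change of 0.67 (edgeR adjusted p = 5.61e-12), and the scaffold gene *SAV1*, with 0.46 (adjusted p = 0.00121), were higher without reaching the fold threshold, which *STK4* did reach under GAPDH scaling, at 1.20. Without an expression filter, *SAV1* was at 0.21 and did not pass (adjusted p = 0.291). *MOB1B*, the paralog of *MOB1A*, was lower, at -0.45 (adjusted p = 0.00303), and at 0.09 under GAPDH scaling. *STK3* did not pass the test (adjusted p = 0.787). Exons of *ATL1* on the opposite strand cover 31.9% of those of *SAV1*. The calls of *LATS1* and *MOB1A* were also lost under GAPDH scaling (both -0.49), with glmTreat (adjusted p = 0.721 and 0.696), when 10 counts were demanded of each library (-0.95 and -0.94), and after thinning to the shallowest library (-0.93 and -0.89).

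Upstream of the kinases, 3 of 20 regulators were called higher (15%, against 20.2% of all genes tested) and 2 lower (10%, against 8.18%), shares near those of all genes. Besides *AMOT*, *FAT4*, a giant protocadherin of planar cell polarity, rose from 8.99 ± 2.09 to 30.3 ± 4.05 CPM (SD, n = 3; log2 fold change 1.72, edgeR adjusted p = 2.42e-11). *MAP4K2*, a kinase that can activate LATS, had a log2 fold change of 1.02 (edgeR adjusted p = 1.48e-06). That call depended on single samples, since the log2 fold change was 0.88 without DMSO replicate 1, 0.92 without DMSO replicate 2, 0.94 without mocetinostat replicate 1, and 0.97 without mocetinostat replicate 2. It was also lost with DESeq2 (0.98), without a filter (0.77), and with glmTreat (adjusted p = 0.785). *FRMD6*, a FERM-domain protein that promotes Hippo signaling, fell from 493 ± 29.4 to 185 ± 21.8 CPM (SD, n = 3; log2 fold change -1.40, edgeR adjusted p = 1.07e-24). *AJUBA*, a LIM protein that inhibits LATS kinases, fell from 97.6 ± 2.58 to 37.9 ± 4.74 CPM (SD, n = 3; log2 fold change -1.34, edgeR adjusted p = 3.03e-15). Both were below the fold threshold under GAPDH scaling, at -0.87 and -0.81. The upstream regulator *NF2*, which encodes merlin, was at -0.34 on the log2 scale (edgeR adjusted p = 2.48e-04) and at 0.19 under GAPDH scaling. The 3 genes of YAP degradation, *CSNK1D*, *CSNK1E*, and *BTRC*, lay between -0.44 and 0.29 and none was called by edgeR, with an adjusted p of 9.91e-04, 0.0365, and 0.00512. Under GAPDH scaling, *CSNK1D* (0.15) and *BTRC* (0.10) turned sign, and with DESeq2 *CSNK1E* did not pass (adjusted p = 0.166). With edgeR it also did not pass when any single sample but mocetinostat replicate 2 was left out (adjusted p from 0.0727 to 0.157), after thinning (adjusted p = 0.086), or without a filter (adjusted p = 0.846). Antisense exons cover 16.9% of those of *CSNK1D*, and exons of *TPTEP2-CSNK1E* on the same strand cover 18.5% of those of *CSNK1E*.

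**Figure D4:**
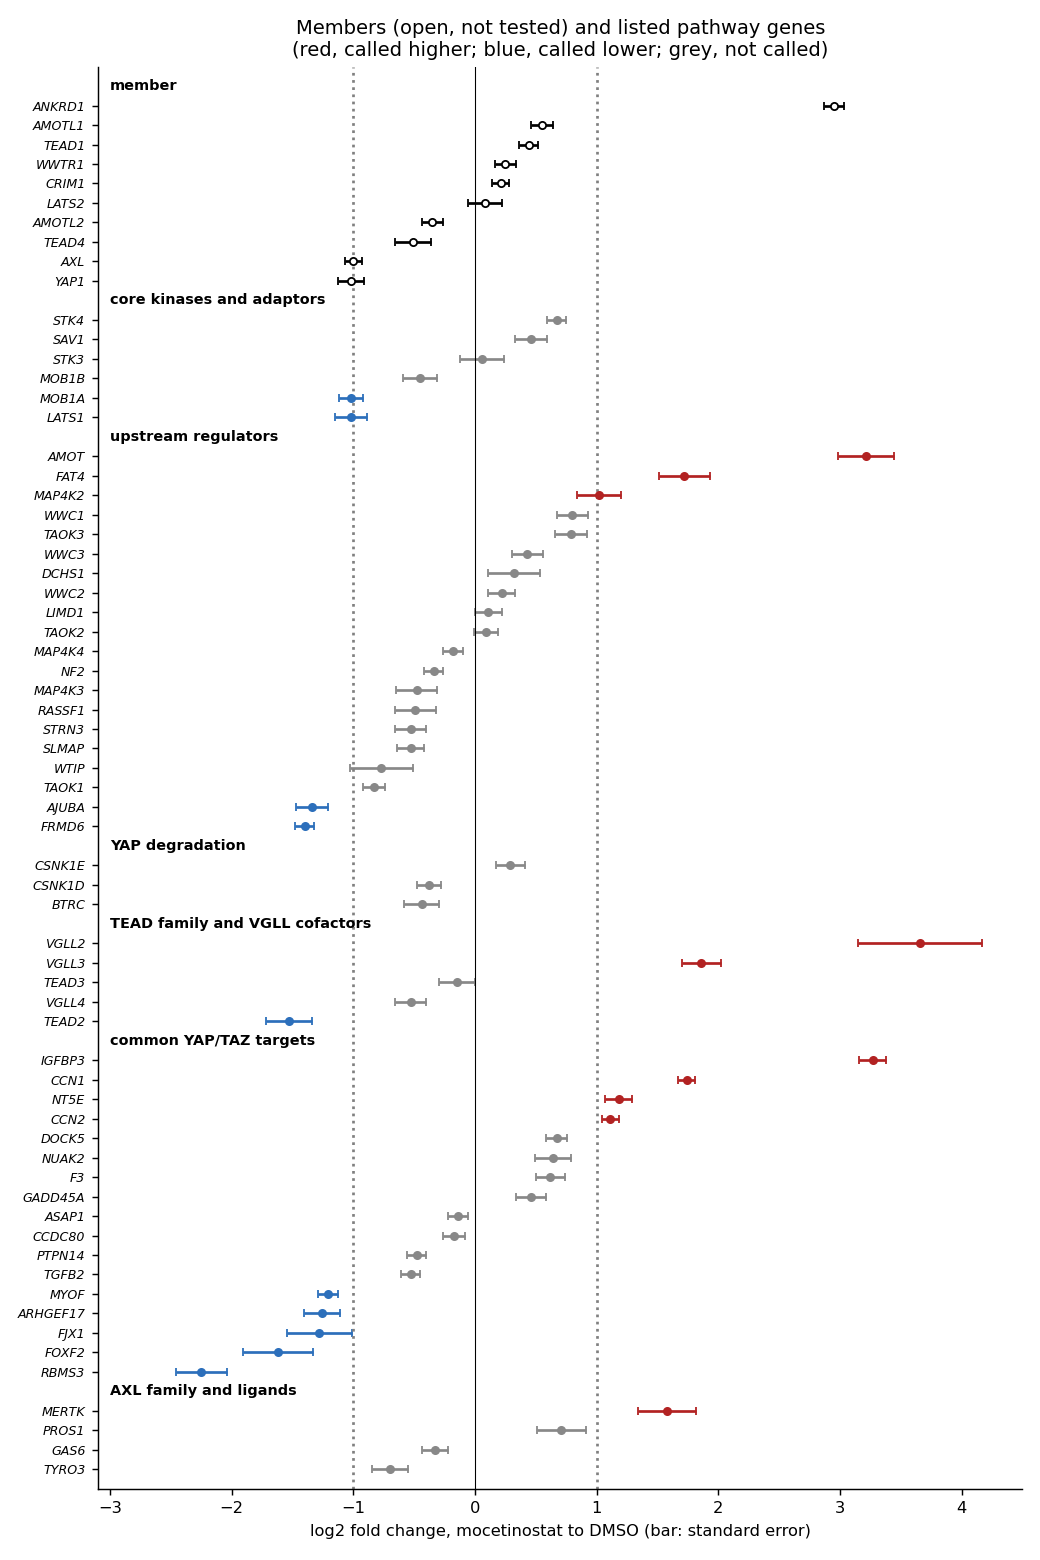
Log2 fold change of mocetinostat to DMSO with its standard error for the members (open circles, not tested) and the listed pathway genes by role (red, called higher; blue, called lower; grey, not called); dotted lines mark the fold threshold of 1. *ANKRD1* stands at 2.95, *AMOT* at 3.21, *IGFBP3* at 3.27, and *VGLL2* at 3.66, while *YAP1*, *LATS1*, and *MOB1A* stand together at -1.02.

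Vestigial-like proteins (VGLL) bind TEADs at the surface that YAP and TAZ use. *VGLL3* rose from 16.4, 12.9, and 16.9 CPM to 55.5, 65.1, and 51.0 CPM (log2 fold change 1.86, standard error 0.16, edgeR adjusted p = 7.12e-17). *VGLL2* rose from 6, 1, and 7 counts to 42, 16, and 15 counts, a log2 fold change of 3.66 (standard error 0.51, edgeR adjusted p = 2.19e-09). It was at 0.208 to 1.03 CPM with DMSO and so passed the expression filter only through the mocetinostat libraries. No value was obtained for *VGLL2* with 10 counts in every sample or after thinning. *VGLL4*, which opposes YAP at TEADs, had a log2 fold change of -0.53 (edgeR adjusted p = 3.25e-04) and one of 0.01 under GAPDH scaling. *VGLL1* held at most 1 count in a library and was not tested. Per kilobase, *VGLL4* went from 85.4% ± 3.52 to 42.1% ± 3.61 of the family (SD, n = 3). Exons of *ATG7* on the opposite strand cover 23.8% of those of *VGLL4*.

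The relatives of *AXL* were followed as well. *MERTK*, another receptor for GAS6 and protein S, rose from 7.25 ± 1.07 to 22.1 ± 4.46 CPM (SD, n = 3; log2 fold change 1.58, edgeR adjusted p = 2.20e-08). *TYRO3* had a log2 fold change of -0.70 (edgeR adjusted p = 3.56e-05), the ligand gene *GAS6* one of -0.33 (adjusted p = 0.00549), and the protein S gene *PROS1* one of 0.71 (adjusted p = 0.00111). Under GAPDH scaling, *TYRO3* was at -0.17 (adjusted p = 0.355), *GAS6* turned to 0.20, and *PROS1*, at 1.25, was called higher. *PROS1* did not pass without an expression filter (0.46, adjusted p = 0.0638) or after thinning (0.57, adjusted p = 0.0535), and neither did *GAS6* after thinning (-0.23, adjusted p = 0.128). Per kilobase, *AXL* made up 95.4% ± 0.484 of the 3 receptors with DMSO and 88.9% ± 1.03 with mocetinostat, and *MERTK* went from 1.31% ± 0.175 to 7.44% ± 1.14 (SD, n = 3). The summed level of the receptors was 134 ± 2.99 CPM per kb with DMSO and 71.7 ± 4.35 CPM per kb with mocetinostat.

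Because *ANKRD1* is best known from heart and skeletal muscle, 13 striated muscle markers were read in the same libraries, and 0 of them passed the filter. Their summed level was 0.833 to 2.08 CPM with DMSO and 9.30 to 12.4 CPM with mocetinostat, far below that of *ANKRD1*. *MYOG* held 0 counts in every library, which allows up to 0.271 to 1.86 CPM, and *TNNT2* and *CKM* held at most 1. The muscle paralogs of *ANKRD1* were read in few counts, with 0 to 13 counts for *ANKRD2* and 0 to 4 for *ANKRD23*. Exons of *ANKRD39* on the same strand cover 73.8% of those of *ANKRD23*, so its count does not show its level.

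The genes with the pattern most like that of *ANKRD1* were *SYT11*, *TFPI2*, *PLCG2*, *OTULINL*, and *TMOD2*. Likeness was the root mean square distance between log2 CPM profiles over the 6 samples, each centred on its own mean, among the 10975 genes whose mean reached 10 CPM in either condition. The distances were 0.0856, 0.0872, 0.101, 0.101, and 0.107, and the log2 fold changes of the 5 genes lay between 2.80 and 3.07. *TFPI2*, a secreted protease inhibitor, was the most abundant of them, at 59.9 ± 2.00 CPM with DMSO and 467 ± 12.9 CPM with mocetinostat (SD, n = 3). With 2 conditions of 3 samples, the distance mostly reflects the size of the difference between conditions. Ranking by Pearson correlation of the same profiles named 5 other genes.

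**Figure D5:**
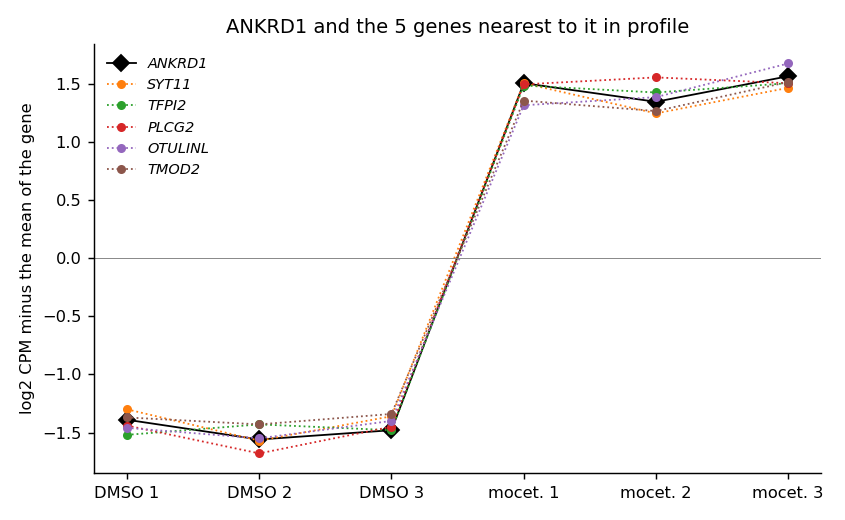
Log2 CPM minus the mean of the gene (vertical axis) in each of the 6 samples for *ANKRD1* (black) and the 5 genes nearest to it. The lines lie within a narrow band in every sample, at or below -1.30 with DMSO and at or above 1.25 with mocetinostat.

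Reads shared with other genes limit some of these values. No stretch of 100 bases, the read length, in the annotated transcripts of *ANKRD1*, *TEAD1*, *TEAD4*, *AXL*, or *LATS2* also occurs in a transcript of another gene on either strand. Shared stretches made up 6.66% of those of *WWTR1*, 6.57% of *YAP1*, 3.96% of *AMOTL1*, 1.28% of *AMOTL2*, and 1.08% of *CRIM1*. Antisense exons overlap 10.1% of the exon bases of *YAP1*, 9.05% of *WWTR1* (*WWTR1-AS1*), 4.95% of *AMOTL1*, 2.43% of *CRIM1*, and 1.31% of *AXL*. Whether counting used strand is not given in the sources used here, and the part of these overlaps in the values was not tested.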

How the data were processed

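TC28a2 cells were treated with DMSO or mocetinostat, with 3 samples per condition grouped by the GEO labels. The authors deposited whole raw counts of reads per gene. Per the paper's methods and the submitters' processing notes, reads were trimmed, depleted of ribosomal RNA reads, aligned to GRCh38 with STAR version 2.6.1d, and assigned with featureCounts version 1.6.4; the strand setting is not given in the sources used here. The columns were matched to samples by title. The members and gene lists were chosen with earlier results of these data known.

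TMM factors, filterByExpr (minimum count of 10), and the quasi-likelihood test of edgeR version 4.0.16 (R 4.3.3) were applied to all 6 samples with treatment as the only term, and p-values were adjusted over all 13966 genes tested by the Benjamini-Hochberg method. Fold changes are on the log2 scale, and a standard error is the absolute log2 fold change divided by the square root of the F statistic. The fit was tested on simulated data with known changes, and no outcome of that test is given here. Named were the 10 members, LATS1, CCN1, CCN2, TEAD2, TEAD3, the VGLL genes, every called gene of the lists, the marker lists included, and the 5 genes nearest to ANKRD1; other names were chosen after their values were seen. The share of a family was computed from counts per kb of the union of exons in GENCODE release 44, to which 99.5% of gene identifiers matched.

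Pairs of replicates differed by more than sampling noise (chi-square per degree of freedom from 1.93 to 7.95). Limits at 3 counts cover counting error only, because reads carry no molecular identifiers. The alternatives were DESeq2 version 1.42.0, RLE factors, library size only, GAPDH scaling, no filter, 10 counts in every sample, glmTreat, the replicate block, thinned libraries, and each sample left out. No sequencing batch is named in the labels.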

Additional observations from a re-analysis of the deposited data

How the results depend on the processing

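Scaling each library to its GAPDH count raised the median log2 fold change of all genes to 0.53, because GAPDH itself was at -0.53 in the TMM fit, and it turned the sign of *TEAD4* (0.03), *AMOTL2* (0.18), *TEAD3* (0.39), *VGLL4* (0.01), *MOB1B* (0.09), *NF2* (0.19), *CSNK1D* (0.15), *BTRC* (0.10), *GAS6* (0.20), *ASAP1* (0.39), *CCDC80* (0.36), and *COL1A1* (0.31). Relative to that median, the members lay within 0.01 of their reported values. Without an expression filter the median was -0.25, and *LATS2* (-0.17), *CRIM1* (-0.04), and *STK3* (-0.19) turned. Relative to the median without a filter, *LATS2* was at 0.08, *CRIM1* at 0.21, and *WWTR1* at 0.25. *STK3* lay between -0.11 and 0.14 with single samples left out. *LATS2* lay between -0.03 and 0.16 with single samples left out. Of the other 6 members, *WWTR1* was at 0.00 without a filter, and apart from that each kept its sign in the 14 alternatives; *ANKRD1* ranged from 2.70 to 3.48.

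Over all genes, 3969 were called, 2827 higher and 1142 lower. GAPDH scaling gave 4425 higher and 284 lower (94.0% higher, against 71.2%), glmTreat 2534 in all with 465 lower, no filter 2120 lower (60.2% higher), and 10 counts in every sample 2324 in all, with 1620 higher and 704 lower. Of the Hippo list, 8 were called higher and 0 lower under GAPDH scaling, and 3 lower with 10 counts in every sample, with glmTreat, and after thinning; with single samples left out, 3 to 5 were called lower. Of the target list, 7 were called higher and 2 lower under GAPDH scaling, 2 higher and 3 lower with glmTreat, and 2 higher without a filter. For each paralog pair, the difference in log2 ratio between conditions kept its sign in the 7 alternatives. Those alternatives moved that difference by less than the SD between replicates. Of the 5 genes nearest to *ANKRD1*, 0 were shared with the ranking by correlation. With the replicate number as a block, 2798 genes were called higher and 1133 lower. Same-numbered samples did not deviate together (correlations of 0.008, 0.012, and -0.016), so the numbers were not treated as pairs. The expression filter removed *VGLL1*, *COL9A1*, *PRG4*, *DCN*, *ANKRD2*, *ANKRD23*, and the muscle markers, which were not tested in the reported fit.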

Other observations

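The striated muscle markers were removed by the expression filter, and the values below were singled out after they were seen. *DES*, the muscle intermediate filament gene, was at 0, 0, and 0.147 CPM with DMSO and at 5.15, 1.86, and 5.39 CPM with mocetinostat. *ACTC1*, the cardiac actin gene, was at 0.271, 0, and 0 CPM with DMSO and at 2.38, 2.48, and 1.66 CPM with mocetinostat. These correspond to 26, 3, and 13 counts of *DES* and 12, 4, and 4 counts of *ACTC1* in the treated libraries. Exons of *GJD2-DT* on the opposite strand cover 15.7% of those of *ACTC1*. *ACTA1*, the skeletal actin gene, and *MYL7*, the atrial myosin light chain gene, overlapped between conditions in CPM. *TNNI3* held at most 9 counts in a library, and the other 8 markers held 6 or fewer.

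GC boxes (GGGCGG, or CCGCCC on the other strand) occurred in 5 of the 10 upstream windows of the 7 matched members, one each of *YAP1*, *AMOTL1*, *AMOTL2*, *AXL*, and *LATS2*, and in 42.6% of all windows. *ANKRD1* and *WWTR1* held none in this window. Among the 12 matched targets outside the members, 5 held the TEAD motif (41.7%, against 11.9% of all windows). Of these, *CCN2* was called higher, *FOXF2* lower, and *PTPN14*, *NUAK2*, and *TGFB2* were not called. At the adjusted p alone, *NUAK2* was higher (log2 fold change 0.64) and *PTPN14* (-0.48) and *TGFB2* (-0.53) were lower.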
